A study of Mus musculus with 6 samples.

Results

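Nos2 and 8 genes that supply or use its substrate, the amino acid arginine, were followed in doxycycline-treated and untreated 4T1-tetL1(GLucAI) cells. The 9 genes were Nos2, Gch1, Arg1, Arg2, Ass1, Asl, Slc7a1, Slc7a2 and Odc1, taken by symbol from a table of 24421 genes. The set was chosen by measured values, since the difference of Nos2 between the treated and the untreated libraries had already been seen in these data. The differences between the groups in these 9 genes are therefore given as a description, with their errors and without a test. All 9 were in the table, and 7 passed the filter on low counts (Ass1 and Slc7a2 did not), as did 13084 genes in all.

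4T1 is a mouse breast carcinoma line from the strain labelled BALB/cfC3H. All 6 libraries came from its derivative 4T1-tetL1(GLucAI), which carries a DOX-inducible LINE-1 (L1) retrotransposition reporter cassette, that is, an L1 element whose copying into new genomic sites can be scored. The cassette held a recoded mouse L1 and, on the other side of a bidirectional tetracycline-inducible promoter, firefly luciferase. The Tet-On 3G activator, made at all times from an EF1α promoter, switches that promoter on when doxycycline is present. The cassette was moved into the cells with piggyBac. The cells were a blasticidin-selected population and not 1 clone. Both groups carried the cassette. Cells without it, and the cassette's own transcript, were not analysed here. Effects of doxycycline itself and of the induced cassette thus cannot be told apart, and the labels could not be checked against the inducer's target. The untreated group (3 libraries, with Vehicle in the treatment label) was set against the doxycycline group (3 libraries, 400 ng/mL for 48 h). Ribosome-depleted total RNA was sequenced, and each library held 31653464 to 43631312 counts in genes and 15418 to 15685 genes with a count. The study describes the replicates of each group as biological triplicates. The labels do not say whether they were separate cultures, and p-values measure the spread between these libraries.

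Nitric oxide synthases convert arginine to nitric oxide and citrulline. Nos2 encodes the inducible synthase, best known from activated macrophages and also made by tumor cells exposed to inflammatory cytokines. The enzyme needs tetrahydrobiopterin, whose synthesis begins with the GTP cyclohydrolase encoded by Gch1. Arginases draw on the same pool: Arg1 encodes the cytosolic liver-type arginase and Arg2 the mitochondrial one, and both cleave arginine to urea and ornithine. Ornithine is turned into putrescine, the first polyamine, by ornithine decarboxylase, the product of Odc1. Arginine enters through the cationic amino acid transporters encoded by Slc7a1 and Slc7a2, and it is rebuilt from citrulline by argininosuccinate synthase (Ass1) and argininosuccinate lyase (Asl).

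Among the 9 genes, those at the top and at the bottom of the order of levels are shown first by sequence. Odc1 gave the highest level per length and Ass1 was listed at 0, and RefSeq promoter sequences (build GRCm38.p6) were at hand for both, 4 of the 9 genes having an entry. The Odc1 window, chr12:17544623-17544807 on the plus strand, holds the 185 bases before the gene's annotated start. The Ass1 window, chr2:31470020-31470269 on the plus strand, holds 250 bases. Capitals mark matches, on either strand, to the TATA box (TATAAA), the GC box (GGGCGG) and the E-box (CACGTG).
Odc1: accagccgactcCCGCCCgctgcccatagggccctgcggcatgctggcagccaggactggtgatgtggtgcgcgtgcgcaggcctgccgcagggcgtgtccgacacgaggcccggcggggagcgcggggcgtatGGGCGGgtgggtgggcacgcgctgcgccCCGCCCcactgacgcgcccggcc
Ass1: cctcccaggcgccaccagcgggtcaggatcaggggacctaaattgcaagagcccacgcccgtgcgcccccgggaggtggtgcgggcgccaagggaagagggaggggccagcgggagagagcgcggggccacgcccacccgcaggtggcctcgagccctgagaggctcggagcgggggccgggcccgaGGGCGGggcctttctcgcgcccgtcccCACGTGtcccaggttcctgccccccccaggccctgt
The Odc1 window held 3 GC boxes and neither of the other motifs. The Ass1 window held 1 GC box and 1 E-box. A GC box was present in 21.8% of the 32851 RefSeq promoter windows cut to 185 bases and in 32.7% at 250 bases. An E-box was present in 3.88% and 6.02%, and a TATA box in 8.55% and 12.4%, respectively. The cut kept the first 185 of the 250 bases and left out those nearest the start of each entry. The Odc1 window is likewise the first 185 bases of its own entry. G and C made up 77.8% of the Odc1 window and 75.6% of the Ass1 window, against a median of 52.4% over all windows of 250 bases. These matches describe the letters alone.

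Nos2 lies on chromosome 11 (78920787-78960226, GRCm38). Its level, in CPM (gene counts relative to the library total, per 1000000 counts, scaled by trimmed mean of M values), was 21.5, 27.1 and 28.6 in the untreated libraries and 10.8, 11.4 and 7.97 in the doxycycline libraries. Every doxycycline library lay below every untreated library, by a wide gap compared with the spread inside either group. The means were 25.7 ± 3.78 (SD, n = 3) and 10.1 ± 1.84 (SD, n = 3), a log2 fold change of -1.35 ± 0.12 (SE). These values rested on 943, 905 and 1073 counts without doxycycline and on 344, 466 and 305 with it. When each library was left out in turn, the log2 fold change of Nos2 stayed between -1.47 and -1.21. Among all 13084 tested genes it was the 23rd lowest, and among those with a mean of at least 1 CPM the 3rd lowest. These ranks rest on the difference by which the set was chosen and are description only. None of the 50-base windows of the Nos2 transcript was shared with a transcript of another gene in the GENCODE M21 annotation. Near matches and copies outside that annotation were not checked.

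The other synthases had few counts. Nos3, the endothelial form, was at 0.408 ± 0.147 CPM without and 0.529 ± 0.0658 CPM with doxycycline (SD, n = 3 each). Its log2 fold change was 0.35 ± 0.42 (SE, adjusted p = 0.739). Nos1, the neuronal form, had no count in 5 libraries and 2 counts in doxycycline replicate 2.

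Gch1, on chromosome 14 (47153895-47189413), stood at 3.92, 4.17 and 4.08 CPM without doxycycline and at 3.05, 3.53 and 3.40 CPM with it. The 3 doxycycline values were all below the untreated ones, though the step was small. The log2 fold change of Gch1 was -0.28 ± 0.16 (SE), less than 2 of its standard errors from 0.

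Arg2, on chromosome 12 (79130788-79156301), measured 7.54, 7.19 and 8.62 CPM in untreated cells and 5.41, 6.59 and 4.65 CPM in treated cells. The groups did not overlap, but doxycycline replicate 2 came close to the lowest untreated library. The log2 fold change of Arg2 was -0.49 ± 0.14 (SE), from means of 7.78 ± 0.747 and 5.55 ± 0.976 CPM (SD, n = 3 each). It was -0.37 without doxycycline replicate 3 and -0.64 without doxycycline replicate 2. Arg2 overlaps Vti1b, and 21.2% of its 50-base windows also occurred in transcripts of Vti1b or Gm48780, so part of its counts could be shared with them.

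Arg1, on chromosome 10 (24915207-24927470), gave only 31, 45 and 51 counts without doxycycline and 32, 35 and 38 with it. In CPM these were 0.706, 1.35 and 1.36, against 1.01, 0.857 and 0.992. The treated values lay inside the untreated range, and a difference was not detectable at this depth (log2 fold change of Arg1 -0.25 ± 0.32, SE). The value moved between -0.51, without untreated replicate 1, and -0.09, without untreated replicate 3.

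Odc1, on chromosome 12 (17544808-17551502), went the other way. It was at 864, 843 and 830 CPM without doxycycline and at 881, 916 and 941 CPM with it. The groups did not overlap, yet the highest untreated library lay just below the lowest treated one, and the log2 fold change of Odc1 was 0.11 ± 0.04 (SE). Parts of the Odc1 transcript (42.2% of its 50-base windows) recur in transcripts of 16 other annotated genes, so its counts depend on how reads that fit several places were treated.

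The main transporter differed little. Slc7a1, on chromosome 5 (148327410-148399904), was at 213, 219 and 208 CPM without doxycycline and at 219, 224 and 224 CPM with it. Its groups met at about the same value, and the log2 fold change of Slc7a1 was 0.06 ± 0.04 (SE). Slc7a2, on chromosome 8 (40862341-40922070), had 2, 3 and 7 counts in untreated cells and 2, 5 and 2 in treated cells. That is at or near the floor of 3 counts (0.0683 to 0.0943 CPM, depending on the library), and no fold is given.

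Asl, on chromosome 5 (130011258-130024381), measured 29.8, 32.5 and 26.6 CPM without and 29.9, 32.7 and 31.5 CPM with doxycycline. The 2 groups overlapped over most of their range (log2 fold change of Asl 0.09 ± 0.08, SE). Its partner in citrulline recycling, Ass1 on chromosome 2 (31470270-31520670), was listed at 0 in all 6 libraries.

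The zero of Ass1 stands beside a close copy elsewhere in the genome. Of its 50-base windows, 55.3% also occur in Gm5424, a processed pseudogene on chromosome 10 (62071123-62072362, GRCm38), and that gene too had 0 counts in every library. The other 44.7% of the windows were found in no other gene's transcript. Gm5424 aligned to all 1236 coding bases of Ass1 and differed at 6 of them. The Ass1 transcript has 1696 bases and that of Gm5424 has 1240, so part of Ass1 lies outside the copy. The stretch from coding base 370 to 429 holds 2 of the coding differences, the most in any 60 bases. It is printed to show how alike the coding sequences are. Capitals mark the differing bases.
Ass1: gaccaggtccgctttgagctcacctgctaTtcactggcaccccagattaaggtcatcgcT
Gm5424: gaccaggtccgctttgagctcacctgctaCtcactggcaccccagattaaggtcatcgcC
A pair of other genes of the pathway that share much of their sequence with copies were also near 0. Oaz1, which encodes the antizyme that limits ornithine decarboxylase and is widely expressed, had at most 1 count in a library, and 52.2% of its windows occur in Oaz1-ps (0 counts in all libraries). The other 47.8% of the Oaz1 windows were found in no other gene's transcript. Amd1, which encodes adenosylmethionine decarboxylase of polyamine synthesis, had 1 count in total and shares 87.6% of its windows with 8 other genes. Odc1 also shares 42.2% of its windows, with 16 other genes, and had 28034 to 37950 counts a library. How the counting treated reads with several matches is not given in the sources used here. Its part in the counts of Ass1, Oaz1, Amd1 and Odc1 was not tested.

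**Figure D1:**
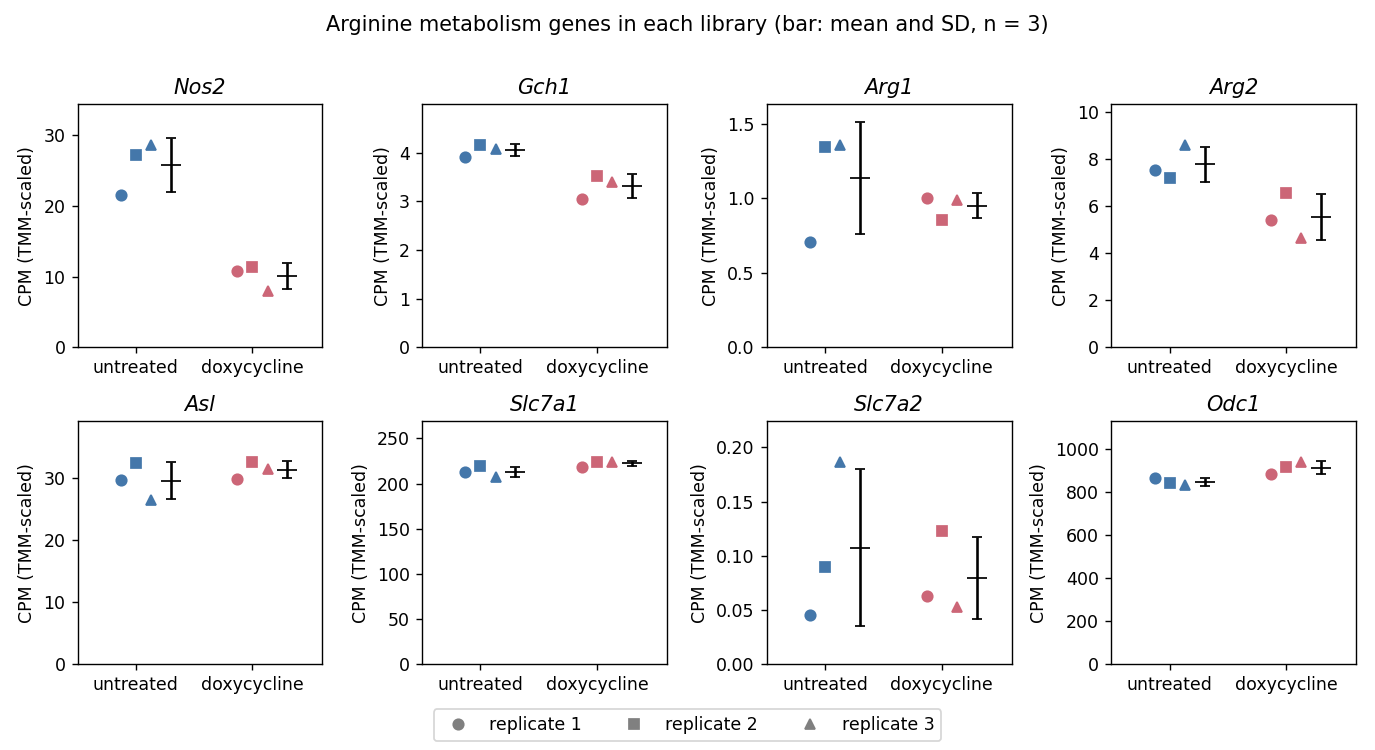
CPM (vertical axis, from 0, own scale in each panel) of 8 of the genes in the untreated (blue) and doxycycline (red) libraries. Symbols mark the replicate number, and the black bar is the mean with its SD (n = 3). Nos2 is at 21.5 to 28.6 CPM without and 7.97 to 11.4 CPM with doxycycline, Odc1 at 830 to 864 and 881 to 941. Ass1, at 0 throughout, is not drawn.

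Across the 7 tested members, 4 had groups that did not overlap, 3 of them lower (Nos2, Arg2, Gch1) and 1 higher (Odc1) with doxycycline. Among all tested genes, 21.3% had groups that did not overlap in either direction. At an adjusted p under 0.05, 1 of the 7 was called, against 3.09% of all tested genes (404 of 13084, of which 121 were higher and 283 lower). Since the set was chosen with the difference of Nos2 in view, nothing is read from these counts. The median log2 fold change of the 7 was -0.25, and that of all tested genes was 0.002. The 1 called member was Nos2 (log2 fold change -1.35). The set was chosen by that difference, so the call is no test of it. Arg2 (-0.49) was not called.

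The members spread over more than 4 orders of magnitude in level. Per kilobase of exon, Odc1 led the untreated cells at 248.3 ± 5.07 CPM per kb (SD, n = 3), followed by Slc7a1 at 18.5 ± 0.483 CPM per kb. Asl, Nos2 and Arg2 came next and close together, at 6.13 ± 0.614, 5.84 ± 0.857 and 5.45 ± 0.523 CPM per kb. The ranges of Asl and Nos2 overlapped, as did those of Nos2 and Arg2, so the order of these neighbours is not set beyond their spread. Gch1 followed at 0.649 ± 0.0204 and Arg1 at 0.511 ± 0.168 CPM per kb, their ranges lying just apart. Slc7a2 was at 0.0118 ± 0.00791 CPM per kb, and Ass1 was listed at 0. Using the longest transcript in place of all exons gave the same order. With that length Asl stood at 12.3 CPM per kb in untreated cells, further above Nos2 at 6.14 and Arg2 at 5.45. The closeness of Asl to Nos2 thus depends on the length used.

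With doxycycline the order changed at 1 place. Arg2 stood at 3.88 ± 0.684 CPM per kb, above Nos2 at 2.28 ± 0.417, and their ranges did not overlap. Per library, the ratio of Nos2 to the summed arginases, both in CPM per kb, was 0.870, 1.09 and 0.976 without doxycycline and 0.578, 0.518 and 0.488 with it. The levels were about equal in the untreated libraries, and in each treated library Nos2 was lower than the arginases. Odc1 made up 86.6 to 87.6% of the summed level per kb of the 9 genes in untreated cells and 88.7 to 89.6% in treated cells. The ratios share the Nos2 values by which the set was chosen and are given without a test.

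**Figure D2:**
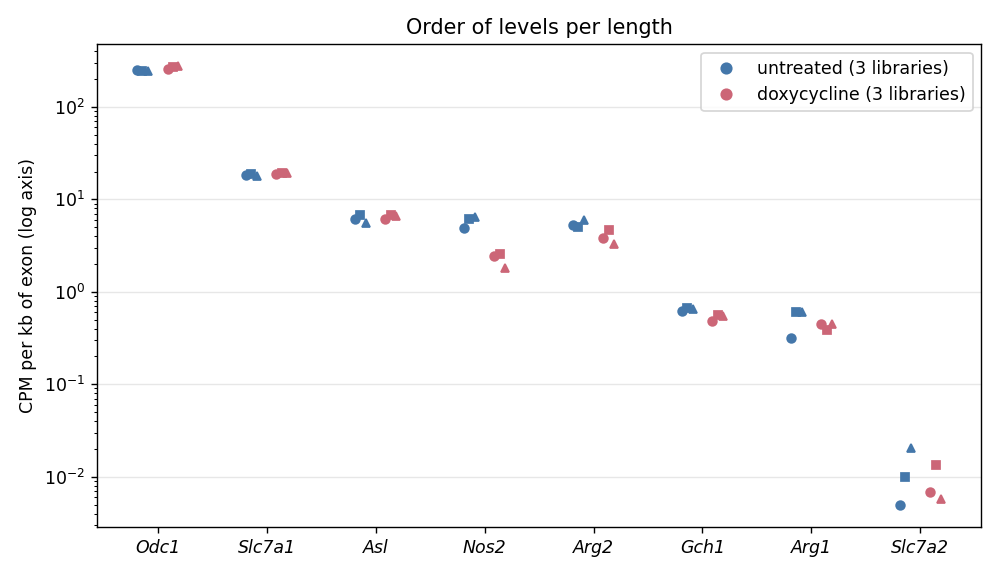
Level per kilobase of exon (vertical axis, CPM per kb, logarithmic) of the 8 genes with a count, ordered by their untreated mean. Each symbol is 1 library, blue for untreated and red for doxycycline. Odc1 lies near 248.3 CPM per kb. Nos2 sits between Asl and Arg2 without doxycycline and below both with it.

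**Figure D3:**
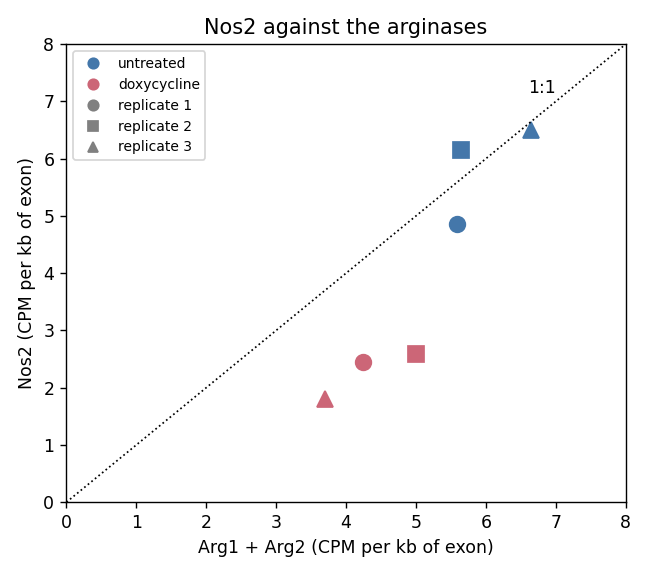
Nos2 (vertical axis) against the sum of Arg1 and Arg2 (horizontal axis), both in CPM per kb of exon, with 1 symbol per library and a dotted line where they are equal. The untreated libraries lie around the line, at ratios of 0.870 to 1.09, and the doxycycline libraries below it, at 0.488 to 0.578.

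The replicates of a group did not deviate together in all members. Doxycycline replicate 3 had the lowest Nos2 and Arg2 of its group but the highest Odc1. Untreated replicate 1 had the lowest Nos2 and Arg1 of its group and the highest Odc1. On the log2 scale the pooled SD within groups was 0.03 for Slc7a1 and 0.04 for Odc1, against 0.25 for Nos2 and 0.37 for Arg1, which had few counts.

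Beyond the members, 97 other genes of the pathway and its surroundings, in 6 lists, were measured in the same fit, with p-values adjusted over all 13084 tested genes. Of these, 78 were tested, 1 was called higher and 4 were called lower, a share of 6.41% against the 3.09% of all genes. Their median log2 fold change was -0.04. The lists were chosen with earlier results of these data known, so nothing is read from the share of calls.

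Of the 18 genes for nitric oxide synthesis and its cofactor, 16 were tested and none was called by edgeR (6 at an unadjusted p under 0.05). Of the 16, 13 had a fold change below 0. The list's median log2 fold change was -0.09, against 0.002 over all tested genes. The share of all tested genes at an unadjusted p under 0.05 was not counted. Nothing is therefore read from such counts in these lists. Calm2, which encodes calmodulin, a protein that Nos2 binds tightly, had a log2 fold change of -0.13 ± 0.05 (SE, adjusted p = 0.213). Among 11 genes that sense or remove nitric oxide, 5 were tested and none was called, nor did any reach an unadjusted p under 0.05 (0 of 5). Txnrd1, a thioredoxin reductase, was at 0.01 ± 0.04 (SE, adjusted p = 0.932), and Cyb5r3, a cytochrome b5 reductase, at -0.10 ± 0.05 (SE, adjusted p = 0.372), both as log2 fold changes. Under the symbols Gucy1a3 and Gucy1b3, the soluble guanylate cyclase that nitric oxide activates had no count in any library.

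Of 18 genes for arginine transport, arginine use and the urea cycle, 13 were tested and none was called by edgeR (2 at an unadjusted p under 0.05), with a median log2 fold change of 0.08. Rars, the arginyl-tRNA synthetase, had the highest level of the list in CPM, at 188.5 ± 2.13 without and 208.9 ± 4.08 with doxycycline. Its groups did not overlap, and its log2 fold change of 0.15 ± 0.04 (SE) did not pass (adjusted p = 0.0704). Slc3a2, the shared heavy chain of several amino acid transporters, was at 0.11 ± 0.05 (SE, adjusted p = 0.284). The liver genes of the urea cycle Otc, Cps1 and Nags had no count in any library.

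Of 19 genes of polyamine metabolism, 14 were tested, none was called higher and 1 was called lower, and the median log2 fold change was -0.06. That 1 was Smox, the spermine oxidase, which measured 48.1, 46.7 and 53.6 CPM without doxycycline and 39.4, 43.2 and 40.6 CPM with it. The groups did not overlap, and Smox fell with a log2 fold change of -0.27 ± 0.07 (SE, adjusted p = 0.0256). Its call was lost without untreated replicates 1 or 3 (adjusted p = 0.0729 and 0.227) and without doxycycline replicates 1 or 3 (adjusted p = 0.0530 and 0.122). Eif5a, whose protein carries the spermidine-derived amino acid hypusine, was at 0.10 ± 0.04 (SE, adjusted p = 0.218), and Mtap, which salvages the by-product of polyamine synthesis, at -0.05 ± 0.05 (SE, adjusted p = 0.672).

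All 13 genes of ornithine, proline and glutamate metabolism were tested, 1 was called higher and none lower, and the median log2 fold change was 0.007. Asns, the asparagine synthetase, measured 124.4, 118.4 and 120.8 CPM without and 130.0, 145.0 and 147.0 CPM with doxycycline. It rose with a log2 fold change of 0.21 ± 0.05 (SE, adjusted p = 0.0221), and its groups did not overlap. The call of Asns was lost without any 1 of the untreated replicates (adjusted p = 0.0686, 0.136 and 0.148 without replicates 1, 2 and 3) and without doxycycline replicate 3 (adjusted p = 0.153). Got2, the mitochondrial aspartate aminotransferase, had a log2 fold change of -0.02 ± 0.05 (SE, adjusted p = 0.905).

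The last list held 18 receptors, signalling proteins and transcription factors of pathways linked to the induction of Nos2. Of its 17 tested genes, none was called higher and 3 were called lower. A fold change below 0 was seen in 15, and the median log2 fold change was -0.08, against 0.002 over all tested genes. Jak2, a kinase that relays interferon gamma signals, measured 166.0, 168.2 and 164.6 CPM without doxycycline and 143.3, 132.6 and 129.5 CPM with it. The gap between the groups of Jak2 was wide against their spread, and it fell with a log2 fold change of -0.30 ± 0.05 (SE, adjusted p = 0.000682). Its adjusted p stayed between 6.5e-07 and 0.0132 under the 12 alternative settings and left-out libraries.

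Cebpb, a transcription factor induced in inflammation, measured 58.4, 55.9 and 52.8 CPM in untreated cells and 50.1, 47.0 and 45.4 CPM in treated cells. It fell with a log2 fold change of -0.23 ± 0.06 (SE, adjusted p = 0.0400), with no overlap. Its call was lost without untreated replicates 1, 2 or 3 (adjusted p = 0.231, 0.139 and 0.0724) and without doxycycline replicate 3 (adjusted p = 0.198). Il1r1, the receptor that signals for interleukin 1, measured 28.0, 29.9 and 25.3 CPM without and 21.7, 22.0 and 24.1 CPM with doxycycline. Its groups did not overlap, and it fell with a log2 fold change of -0.29 ± 0.08 (SE, adjusted p = 0.0465). The call of Il1r1 was lost without untreated replicates 1, 2 or 3 (adjusted p = 0.176, 0.236 and 0.0564) and without doxycycline replicates 1 or 3 (adjusted p = 0.0811 and 0.0649).

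The most abundant members of this list that were not called were Hif1a, a factor of the hypoxia response, and Nfkb1, a subunit of NF-κB. Hif1a had a log2 fold change of -0.08 ± 0.05 (SE, adjusted p = 0.437) and Nfkb1 of -0.08 ± 0.04 (SE, adjusted p = 0.403).

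**Figure D4:**
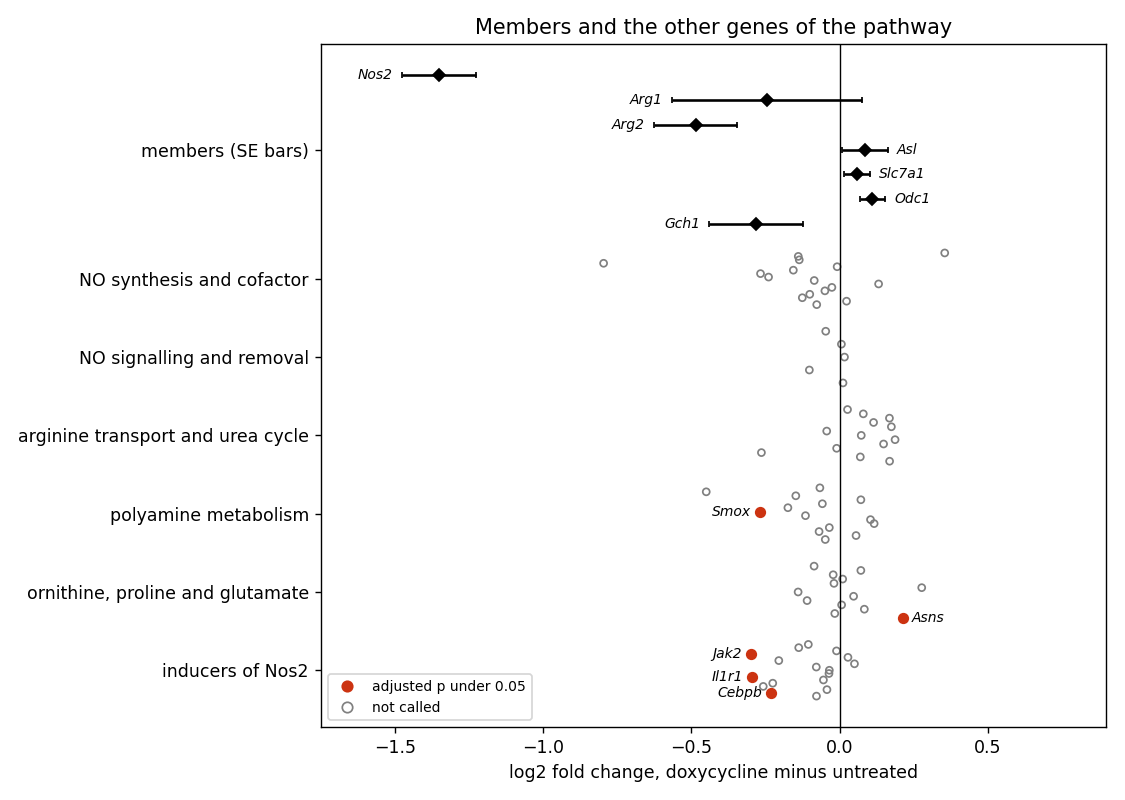
Log2 fold change (horizontal axis, doxycycline minus untreated) of the 7 tested members, with SE bars, and of the 78 tested genes of the 6 other lists, with filled red points for those with an adjusted p under 0.05. Nos2 lies at -1.35, and the 5 called genes of the lists lie between -0.30 and 0.21.

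Macrophages are a known source of Nos2, and the macrophage and monocyte list had a lower sum with doxycycline (24.0 to 26.1 CPM) than without (29.2 to 31.5 CPM). Its part in the Nos2 values was not tested. Most of that sum was Cd14 (17.2 ± 1.59 and 12.3 ± 0.363 CPM, SD, n = 3 each), Cd68 and Mrc1. Of the 4 tested genes of the 11, Cd14 was the 1 called, and it fell with a log2 fold change of -0.48 ± 0.09 (SE, adjusted p = 0.00482). That call was lost without untreated replicate 1 (adjusted p = 0.0656). The defining genes Adgre1 and Tyrobp had no count in any library, and Ptprc, found on all blood leukocytes, reached at most 0.561 CPM. The neutrophil list summed to at most 1.04 CPM and the lymphocyte list to at most 0.343 CPM in any library. The list for endothelium and fibroblasts summed to 37.5 to 39.1 CPM without and 29.1 to 29.9 CPM with doxycycline, nearly all of it Pdgfra, which fell with a log2 fold change of -0.40 ± 0.07 (SE, adjusted p = 0.000952). Markers of the labelled carcinoma epithelium, all 9 tested, had a high sum in all libraries. It was 1841 to 1927 CPM without and 1790 to 2026 CPM with doxycycline, led by Krt18 and Krt8. Not every marker was high: Krt14 and Cldn7 had means of 3.04 and 4.49 CPM without doxycycline. The median log2 fold change of the 9 was 0.02, and 1 was called. That 1, Krt19, fell with a log2 fold change of -0.31 ± 0.06 (SE, adjusted p = 0.00782). The call was lost without untreated replicate 2 or doxycycline replicate 3 (adjusted p up to 0.0799).

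The genes around Nos2 on chromosome 11 were measured to see the state of its neighbourhood. The 3 nearest tested genes on each side were Lyrm9, Nlk and Tmem97 below it and Lgals9, Ksr1 and Gm11201 above it. None of these 6 was called, and their log2 fold changes lay between -0.09 and 0.08. Lgals9, which encodes galectin-9 and lies 2753 bases from Nos2, was at 55.7 CPM without and 52.3 CPM with doxycycline (log2 fold change -0.09 ± 0.10, SE, adjusted p = 0.702).

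The genes most like Nos2 over the 6 libraries were found by the root mean square difference between log2 levels, each taken as the deviation from the gene's own mean. Over 9878 tested genes with a mean of at least 5 CPM, the closest was Bnip3 (0.212), a mitophagy receptor gene induced by hypoxia. Bnip3 measured 51.7, 63.7 and 76.4 CPM without doxycycline and 33.5, 29.2 and 28.5 CPM with it. Like Nos2, Bnip3 was lowest in replicate 1 and highest in replicate 3 among the untreated libraries, and lowest in replicate 3 among the treated ones. The highest treated library differed, being replicate 2 for Nos2 and replicate 1 for Bnip3.

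Next came Mpp2, a membrane scaffold gene, with a difference of 0.320 and means of 10.8 ± 1.91 and 5.90 ± 0.503 CPM. Lcn2, which encodes the siderophore-binding protein lipocalin 2, followed at 0.323 (94.3 ± 5.50 and 52.5 ± 3.81 CPM). Nid1, a basement membrane gene, was at 0.337 (6.61 ± 0.693 and 3.53 ± 0.214 CPM), and Car9, a cell surface carbonic anhydrase induced by hypoxia, at 0.340 (6.54 ± 1.18 and 3.58 ± 0.321 CPM). All means are untreated before doxycycline, with SD and n = 3. Of the other members, Arg2 ranked 38th by this measure, with a difference of 0.452, and Slc7a1, Asl and Odc1 ranked 7008th, 8150th and 8542nd. The measure rests on 6 libraries and on the contrast that chose Nos2, so it describes likeness in these libraries alone.

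**Figure D5:**
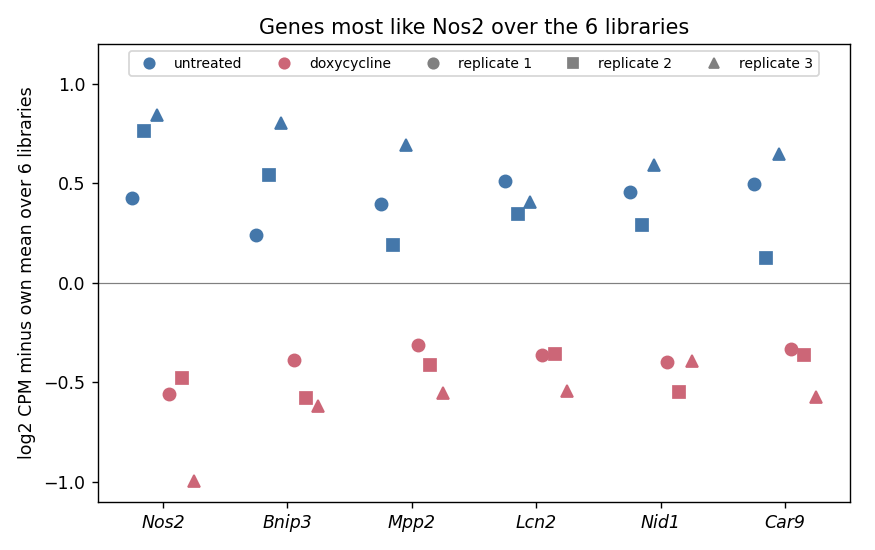
Log2 CPM minus the gene's own mean over the 6 libraries (vertical axis) for Nos2 and the 5 genes most like it, with 1 symbol per library. In each gene the 3 untreated libraries (blue) lie above 0 and the 3 doxycycline libraries (red) below it.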

How the data were processed

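The deposited values were whole-number counts of reads per gene, not normalized. Per the labels and the study's methods, the authors depleted ribosomal RNA, made strand-marked libraries, demultiplexed with bcl2fastq 2.20, aligned with STAR to mm10 (GRCm38) and counted with featureCounts (Subread 1.6.2). The strand setting and the treatment of reads with several matches are not given in the sources used here, so reads of overlapping and copied genes may be shared or dropped. Members, lists and tests were chosen with earlier results of these data known.

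The counts were fitted on all genes that passed filterByExpr with edgeR 4.0.16 (R 4.3.3): TMM scaling, robust quasi-likelihood F-test of doxycycline against untreated, and Benjamini-Hochberg adjustment over 13084 genes (threshold 0.05). The fit was tested on simulated data. No pair of replicates of a group agreed within sampling noise (chi-square per degree of freedom 6.14 to 22.1). CPM used TMM-scaled library sizes; log2 CPM for likeness used a prior count of 2. The floor of a library was 3 counts and covers counting error only. Levels per kb used the exon union of GENCODE M21, coordinates RefSeq, and shared sequence 50-base windows of GENCODE transcripts.

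The text names all 9 members. From each other list it names up to 4 called genes by smallest adjusted p and the 2 most abundant not called, some of which are not reported here. Markers are given by list sums. The 5 genes most like Nos2 are named. Genes at 0, other synthases, copies, called markers and neighbours were named after their values were seen. Alternatives were scaling by DESeq2 (1.42.0) size factors or by library totals alone, testing every gene or those with 10 or more counts in all libraries, DESeq2's Wald test, a replicate block and leaving out each library.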

Additional observations from a re-analysis of the deposited data

How the results depend on the processing

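The direction of the log2 fold change of all 7 tested members was the same under all 12 alternatives. Calls over all tested genes (121 higher, 283 lower) became 210 higher and 439 lower with no filter, 162 and 321 with DESeq2's Wald test. Leaving out 1 library gave 44 (without untreated replicate 3) to 269 higher and 116 (without untreated replicate 3) to 487 lower, the highest counts being without doxycycline replicate 2. Calls in the 6 other lists (1 higher, 4 lower) became 2 higher and 4 lower with DESeq2's Wald test, and 0 to 4 higher and 1 to 7 lower when 1 library was left out. Of the 5 genes called there, Jak2 kept its call throughout. The causes were not tested.

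Same-numbered libraries did not deviate together (correlations of -0.04, -0.004 and 0.02), so no pairing by number was seen in these values. The labels do not say whether same-numbered libraries were handled as pairs. With the replicate block, 118 genes were called higher and 300 lower, the lists again gave 1 higher and 4 lower, and the log2 fold change of Nos2 was -1.36.

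Depth limited Arg1, at 31 to 51 counts a library, and Slc7a2, at 2 to 7. Ass1 had no count, against floors of 0.0683 to 0.0943 CPM.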
